A study of Arabidopsis thaliana with 38 samples.

Results

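The 10 genes described here are those of the flavonoid and proanthocyanidin pathway of Arabidopsis that are named for, or work together with, the *transparent testa* (*tt*) loci. They were chosen by gene identity, with earlier results of these data known. All 10 were among the 26925 genes with TPM, a transcript level scaled to gene length and to the library, in both 24HAI endosperm and globular seeds. RNA-seq of Col-0, the wild type, and of *vel3-1*, a line with a T-DNA insertion in *VEL3* in the Col-0 background, was made from globular-stage seeds, mature endosperm and endosperm of seeds imbibed in water for 24 h (24HAI), with 3 biological replicates per genotype and stage. *VEL3* encodes a VEL-family protein linked to histone deacetylase complexes and seed dormancy, and the parent plants flowered at the cooler of the temperatures that the study used. The results rest on 4 groups of 3 libraries: 24HAI endosperm of *vel3-1*, 24HAI endosperm of Col-0, globular seeds of *vel3-1* and globular seeds of Col-0. A globular library pooled whole seeds of several siliques and so held seed coat, endosperm and embryo, while the 24HAI tissue was squeezed from seeds and enriched for endosperm. Only 1 *vel3* allele was sequenced. Mature endosperm has TPM for 640 genes, of which *TT12* was the only member.

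*VEL3* (AT2G18870), the gene with the insertion, gave 9.79, 8.30 and 13.0 TPM in globular seeds under the label *vel3-1*, against 1.34, 1.99 and 2.23 TPM under the label Col-0, which goes against a loss of transcript. The value of 13.0 TPM is from replicate 3, a library with a raised floor that is described further on, and the other *vel3-1* values also lie above all of Col-0. At 24HAI the 3 *vel3-1* libraries held 0, 0.0770 and 0.160 TPM of it and each Col-0 library 0, so that stage gives no check. TPM per gene do not show where an insertion lies in a transcript, and the groups are therefore called by their labels. The sum of TPM over the listed genes lay between 790391 and 892760 in globular libraries and between 979241 and 982037 in 24HAI libraries. Read counts per gene were not used here, so no counting interval is given and precision comes from the spread between libraries. For limma on all globular libraries that spread is the one of similarly abundant genes and not of the gene itself.

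Flavonoids are made from phenylalanine through the phenylpropanoid route and chalcone synthase. In Arabidopsis seeds the late branch gives proanthocyanidins, which build up in the inner layer of the seed coat and turn brown as the seed matures, so that mutants of the pathway have pale, transparent seed coats and often weaker dormancy. The late genes are switched on by a complex of a MYB factor (TT2), a bHLH factor (TT8) and the WD40 protein TTG1. The seed coat is maternal tissue and the endosperm is a product of fertilization.

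Since a bHLH factor such as TT8 binds E-boxes and MYB factors bind AC elements, the bases before each annotated gene start are shown for 5 members that the results turn on: the 4 whose window of 250 bases holds a G-box, and *TT7*, which holds none and which, with *TT6*, kept the largest share of its level at 24HAI. Sequences are those of RefSeq for TAIR10.1, read from 5′ to 3′ on the strand of the gene, and capitals mark matches to the motifs searched.
*TT4*, chr5:4488226-4488475, plus strand: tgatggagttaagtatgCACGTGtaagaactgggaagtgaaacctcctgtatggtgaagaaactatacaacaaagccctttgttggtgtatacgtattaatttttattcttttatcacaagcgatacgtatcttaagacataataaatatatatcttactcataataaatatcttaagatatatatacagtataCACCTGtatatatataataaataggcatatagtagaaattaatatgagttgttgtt
*TT6*, chr3:19024942-19025191, plus strand: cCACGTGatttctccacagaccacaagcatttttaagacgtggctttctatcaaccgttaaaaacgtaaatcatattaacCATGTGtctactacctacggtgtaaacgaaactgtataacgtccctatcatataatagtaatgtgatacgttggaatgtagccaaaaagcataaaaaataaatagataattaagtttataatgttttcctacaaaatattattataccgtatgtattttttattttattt
*TT7*, chr5:2560078-2560327, plus strand: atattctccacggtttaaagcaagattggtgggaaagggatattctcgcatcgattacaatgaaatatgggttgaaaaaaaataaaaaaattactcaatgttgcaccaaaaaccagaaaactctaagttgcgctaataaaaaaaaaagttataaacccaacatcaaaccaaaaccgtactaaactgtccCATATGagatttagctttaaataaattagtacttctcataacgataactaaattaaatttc
*TT3*, chr5:17166033-17166282, minus strand: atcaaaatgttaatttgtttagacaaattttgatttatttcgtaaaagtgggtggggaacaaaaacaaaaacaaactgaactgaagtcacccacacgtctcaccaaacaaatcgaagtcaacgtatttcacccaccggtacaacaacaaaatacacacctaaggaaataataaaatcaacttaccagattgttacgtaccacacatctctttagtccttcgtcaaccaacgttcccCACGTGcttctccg
*BAN*, chr1:22792804-22793053, minus strand: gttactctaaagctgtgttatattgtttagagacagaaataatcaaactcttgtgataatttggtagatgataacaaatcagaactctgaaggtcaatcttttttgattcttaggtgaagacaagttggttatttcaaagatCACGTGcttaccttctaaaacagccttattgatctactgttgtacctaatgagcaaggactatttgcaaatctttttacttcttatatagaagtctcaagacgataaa
Motifs were searched on both strands of the windows of all 10 members and of 27443 protein-coding genes of the nuclear chromosomes. The E-box CANNTG was found before 8 of 10 members and before 55.3% of all genes. Its special case, the G-box CACGTG, lay before *TT4*, *TT6*, *TT3* and *BAN*, which are 4 of 10 members, against 6.49% of all genes. In *TT3* the G-box ended 9 bases before the annotated start, in *BAN* 103, in *TT4* 228 and in *TT6* 244. The AC element ACCAACC was found before *TT8* alone among the members and before 2.69% of all genes, and ACCTACC before 0 of 10 members and 1.16% of all genes. *LDOX* and *TT12* held none of these letters in the window. Each G-box match is also an E-box match, and a match is a description of the letters.

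The early biosynthetic genes were among the most abundant transcripts of globular seeds. *TT4* (AT5G13930, chromosome 5 of TAIR10.1 from 4488476 to 4490264, plus strand) encodes chalcone synthase, the entry enzyme, and had 2305, 2514 and 1527 TPM in the libraries labelled *vel3-1*, against 2040.0, 2112 and 2318 TPM in Col-0. It was the highest member in all 6 globular libraries and ranked between 24 and 34 among all listed genes. *TT5* (AT3G55120, chromosome 3, 20430059 to 20431597, minus strand), chalcone isomerase, closes the ring of its product and had 426, 477 and 261 TPM in *vel3-1*, against 394, 398 and 415 TPM in Col-0. *TT6* (AT3G51240, chromosome 3, 19025192 to 19026872, plus strand), flavanone 3-hydroxylase, gives the dihydroflavonols and had 649.9, 815 and 362 TPM in *vel3-1*, against 541, 597 and 609 TPM in Col-0. In these genes the third *vel3-1* library was the lowest of the 6 and the second the highest. *TT7* (AT5G07990, chromosome 5, 2560328 to 2563137, plus strand), the cytochrome P450 that adds the 3′ hydroxyl group, had 1193, 1363 and 694 TPM in *vel3-1*, against 1339.6, 1445 and 1425 TPM in Col-0. Here the 3 Col-0 libraries lay close together and 1 of the *vel3-1* libraries lay among them.

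The late biosynthetic genes had the same layout over the libraries. *TT3* (AT5G42800, chromosome 5, 17164093 to 17166032, minus strand), dihydroflavonol reductase, had 947, 1267 and 493 TPM in *vel3-1*, against 955, 980.0 and 1102 TPM in Col-0. *LDOX* (AT4G22880, chromosome 4, 12004726 to 12006209, minus strand), leucoanthocyanidin dioxygenase, makes anthocyanidins and had 489, 532 and 272 TPM in *vel3-1*, against 465, 474 and 517 TPM in Col-0. *BAN* (AT1G61720, chromosome 1, 22790966 to 22792803, minus strand), anthocyanidin reductase, makes the epicatechin units of proanthocyanidins and had 371, 454 and 197 TPM in *vel3-1*, against 339.7, 347 and 374 TPM in Col-0. In each of these 3 genes *vel3-1* replicate 2 was the highest library and *vel3-1* replicate 3 the lowest. *TT12* (AT3G59030, chromosome 3, 21819040 to 21821440, plus strand), the vacuolar transporter that carries the precursors, had 62.6, 76.8 and 40.1 TPM in *vel3-1*, against 53.7, 56.0 and 59.6 TPM in Col-0.

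The regulators were lower than the enzymes per gene length. *TT2* (AT5G35550, chromosome 5, 13726743 to 13727961, plus strand), the MYB factor of the complex, had 55.6, 66.5 and 38.6 TPM in *vel3-1*, against 57.8, 55.8 and 46.1 TPM in Col-0. *TT8* (AT4G09820, chromosome 4, 6181881 to 6186523, plus strand), its bHLH partner, had 91.3, 103 and 69.7 TPM in *vel3-1*, against 101, 116 and 129.6 TPM in Col-0. The groups overlapped for both genes. In Col-0 globular seeds the order of mean TPM was *TT4*, *TT7*, *TT3*, *TT6*, *LDOX*, *TT5*, *BAN*, *TT8*, *TT12* and *TT2*, and only the last 2 neighbours overlapped in range. In *vel3-1* the order was the same, and ranges of neighbours overlapped for all pairs except *TT4* with *TT7* and *BAN* with *TT8*, although within each *vel3-1* library every member lay above the next in that order. Some members overlap a gene on the other strand, *TT4* with AT5G13940, *TT6* with AT3G51238 and *TT12* with AT3G59040. The authors kept sense reads, so these genes were counted apart.

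**Figure D1:**
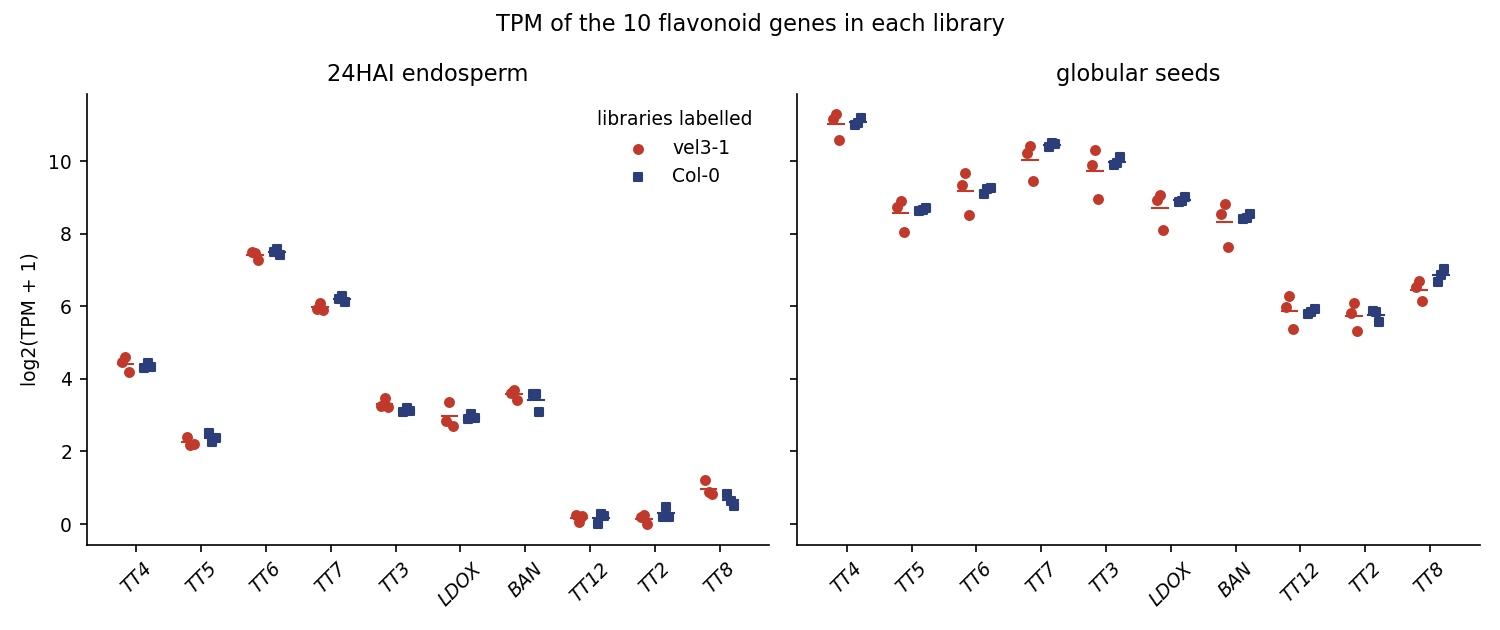
log2(TPM + 1) of each of the 10 genes in each library of 24HAI endosperm (left) and globular seeds (right), with libraries labelled *vel3-1* as circles, Col-0 libraries as squares and the mean of 3 libraries as a line. All 10 genes lie lower in all 6 libraries at 24HAI, *TT6* and *TT7* are the 2 highest there, and 1 *vel3-1* library of globular seeds lies under the other 5 in all 10 genes.

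*vel3-1* replicate 3 of globular seeds stood apart. The sum over the 10 members was 6592, 7668 and 3954 TPM in the *vel3-1* libraries, against 6287, 6580.3 and 6995 TPM in the Col-0 libraries. Over the members, the level in *vel3-1* replicate 3 was 0.445 to 0.718 times the mean of the other 2 *vel3-1* libraries, with a median of 0.559. A set of 4212 nuclear genes with 0 TPM in every 24HAI library had in the same library a median of 10.0 TPM, whereas its median was 1.43 and 0.322 TPM in the other *vel3-1* libraries and 0.317, 0.376 and 0.613 TPM in Col-0. The summed TPM of 13 seed coat and integument markers was also lower in it, at 1312 TPM, against 1919 and 2588 TPM in the other *vel3-1* libraries and 2068 to 2124 TPM in Col-0. Most of that sum was *SBT1.7*, and the markers did not move as a set. In *vel3-1* replicate 3, *GL2*, *MUM4*, *MYB61*, *SBT1.7*, *COBL2* and *STK* stood at 0.566 to 0.681 times the Col-0 mean and *MUCI10* at 0.955 times. *MUM2*, *FLY1*, *INO*, *DP1*, *PMEI6* and *PRX36* stood at 1.38 to 24.2 times, the last 3 from 0.361 to 0.780 TPM in Col-0. The member sum was 3.44, 2.96 and 3.01 times the marker sum in the *vel3-1* libraries, against 2.96, 3.18 and 3.30 times in Col-0. Markers of other tissues also differed between the genotypes in globular seeds. The summed TPM of 7 early endosperm markers was 234, 248 and 173 TPM in *vel3-1*, against 99.3, 107 and 86.0 TPM in Col-0. Within it *PHE1* averaged 130 TPM in *vel3-1* and 22.9 TPM in Col-0. Of the 7, 3 (*PHE1*, *AGL62* and *MINI3*) were called higher by limma. *FIS2* and *ZOU* went the other way, with every *vel3-1* library below every Col-0 library and an unadjusted p under 0.05 from limma. *FIS2* averaged 9.93 TPM in *vel3-1* and 19.7 TPM in Col-0, and *ZOU* 7.07 and 14.5 TPM in the same order. The call of *AGL62* was lost without replicate 1 of *vel3-1* or of Col-0, at an adjusted p of 0.0785 and 0.0960, and that of *MINI3* without any one of the Col-0 libraries, at 0.0861 to 0.208. Of 6 embryo markers *LEC1*, a regulator of embryo identity, was called lower, with 13.7, 16.9 and 17.3 TPM in *vel3-1*, against 78.1, 40.0 and 59.6 TPM in Col-0. The sum of these 6 was 29.9, 25.6 and 62.2 TPM in *vel3-1*, against 84.6, 50.4 and 71.4 TPM in Col-0. The log2 difference was negative for *LEC1* only and positive for the other 5, with a median of 0.67, beside 0.50 over all genes. Without *vel3-1* replicate 3, 4 of the 5 embryo markers tested were positive, with a median of 0.16, beside 0.14 over all genes. Of the 13 seed coat and integument markers 1 (*MUM2*) was called higher. The part of the raised floor and of the tissue in the members' values was not tested. In such whole-seed samples fewer cells of a type and less RNA per cell cannot be told apart.

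**Figure D2:**
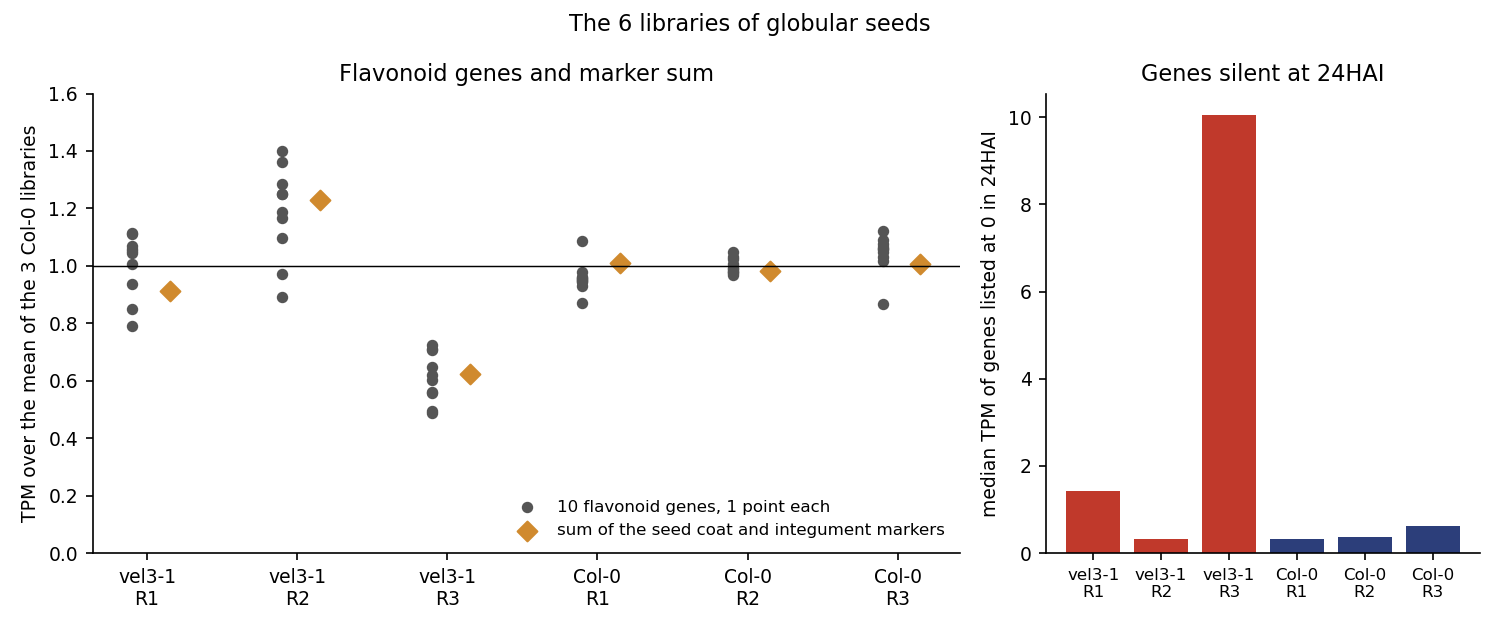
The 6 libraries of globular seeds, with *vel3-1* replicates 1 to 3 (R1 to R3) left of the Col-0 replicates. Left, TPM of each of the 10 genes (grey points) and of the sum of 13 seed coat and integument markers (diamonds) over the mean of the Col-0 libraries. Most of the marker sum was *SBT1.7*. Right, the median TPM of 4212 nuclear genes listed at 0 in all 24HAI libraries, which was 10.0 in *vel3-1* replicate 3, where all 10 genes and the marker sum were low.

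Between the genotypes in globular seeds, 0 of the 10 members were called in either direction by limma (2-fold or more, with a Benjamini-Hochberg adjusted p under 0.05), beside 2.08% of the 26593 genes tested. None of the members had an unadjusted p under 0.05, that is 0 of 10, beside 11.3% of all genes. In this fit limma took the spread of each gene wholly from genes of similar abundance (the trend). A gene's own spread between libraries did not enter its p. For *TT4* the standard error was 1.55 with the trend, too large for a 2-fold difference to be called, and 0.26 without it. Without the trend 0 of all genes were called. The absence of calls therefore says little about the most abundant members. The groups overlapped in all 10 members. In 20.0% of all genes every *vel3-1* library lay above every Col-0 library and in 3.97% below. Without *vel3-1* replicate 3, 19639 genes passed the filter instead of 26593, and these shares were not taken over that smaller set. The log2 differences, *vel3-1* minus Col-0 on log2(TPM + 1), were negative for 9 of 10 members, with a median of -0.12, beside a median of 0.50 over all genes tested. Both medians depended on the scaling. Under median-ratio scaling the median was -0.55 for the members and 0.10 for all genes, under quantile normalization -0.012 and -0.022 in the same order, and with the median of the genes silent at 24HAI subtracted from each globular library -0.16 and -0.21. Without *vel3-1* replicate 3 the median of the members was 0.16, beside 0.14 over all genes, and 8 of the 10 differences were positive, so that the gap between members and all genes was absent without that library.

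With all libraries the largest differences were those of *TT7* and *TT8*. *TT7* averaged 1083 ± 348 TPM in *vel3-1* and 1403 ± 55.9 TPM in Col-0 (SD, n = 3 each), a log2 difference of -0.43 with a standard error of 0.93 and an adjusted p of 0.750 from limma. *TT8* averaged 88.0 ± 16.9 TPM in *vel3-1* and 116 ± 14.4 TPM in Col-0 (SD, n = 3 each), a log2 difference of -0.40 with a standard error of 0.21 and an adjusted p of 0.448 from limma. The 95% intervals were wide for the abundant members, from -3.10 to 2.98 for *TT4*, from -2.25 to 1.39 for *TT7* and from -1.71 to 1.17 for *TT3*. For these 3 genes they took in more than a 2-fold difference in both directions, and for *TT6* and *LDOX* in the lower direction. With the trend in limma the width of an interval follows the spread of similarly abundant genes, and without the trend that of *TT4* ran from -0.70 to 0.58. Without *vel3-1* replicate 3 the difference was -0.14 for *TT7* and -0.24 for *TT8*, and the largest were those of *TT6* at 0.32 and *TT12* at 0.29. Without *vel3-1* replicate 2 *TT8* stood at -0.52 with an adjusted p of 0.0407 from limma, at less than 2-fold. Without *vel3-1* replicate 3 the intervals of all 10 members lay within 2-fold, from -0.63 at the lower end of *TT8* to 0.74 at the upper end of *TT6*.

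**Figure D3:**
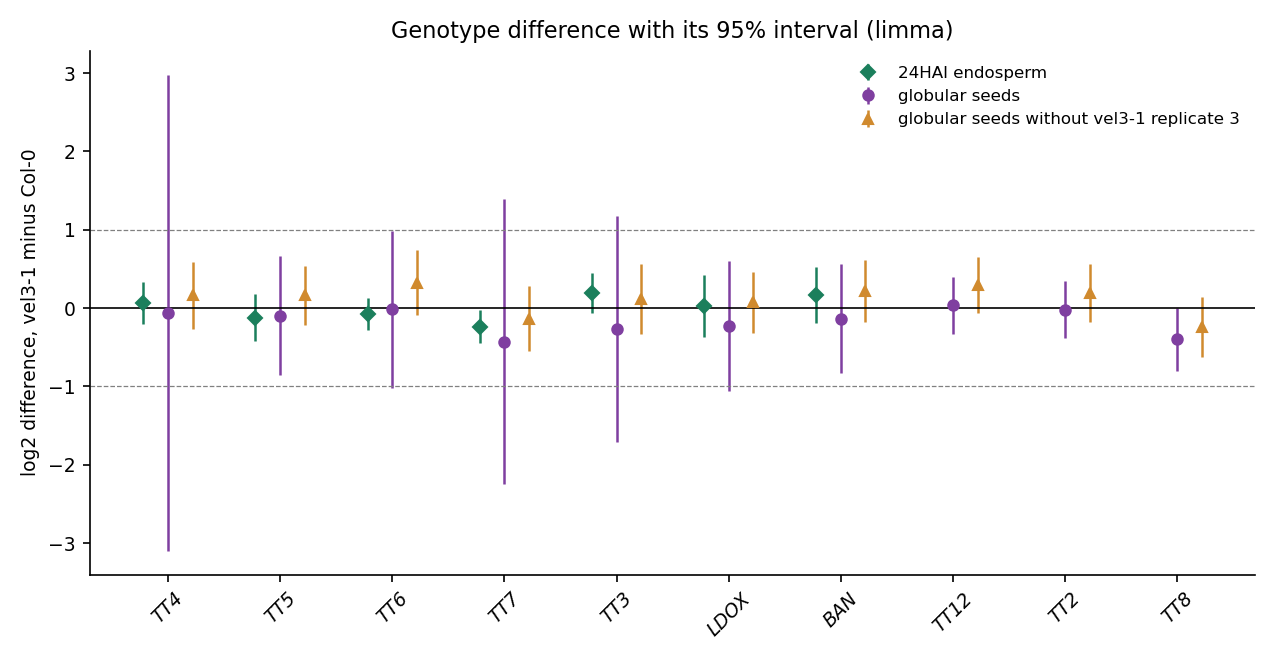
log2 difference of each member, *vel3-1* minus Col-0 on log2(TPM + 1), with its 95% interval from limma, in 24HAI endosperm (diamonds), in globular seeds (circles) and in globular seeds without *vel3-1* replicate 3 (triangles). Dashed lines mark 2-fold. *TT12*, *TT2* and *TT8* were under a mean of 1 TPM at 24HAI and are not drawn there, and the interval of *TT7* at 24HAI lies under 0, from -0.45 to -0.03.

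The 24HAI libraries were read against markers of the labelled endosperm. Of 6 markers of mature and imbibed endosperm 3 (*EPR1*, *MFT* and *DOG1*) were above globular seeds in all libraries, 2 (*MAN6* and *MAN7*) overlapped and 1 (*MAN5*) was below, at 3.03 to 3.40 TPM in *vel3-1* and 3.37 to 4.02 TPM in Col-0 at 24HAI, against 6.69 to 13.9 TPM in *vel3-1* and 4.63 to 7.11 TPM in Col-0 in globular seeds. *EPR1*, an extensin-like gene of the endosperm, had 16077 to 20368 TPM at 24HAI, while *STK*, an integument gene, had at most 0.382 TPM and *INO*, of the outer integument, was at 0 in 5 of 6 libraries. The sum of the 13 seed coat and integument markers was 350.0 to 415 TPM in the *vel3-1* libraries, against 238 to 311 TPM in Col-0, and most of it was *SBT1.7*. *COBL2*, *FLY1*, *MUM4* and *MUCI10* of that list averaged 4.74 to 10.8 TPM per group at 24HAI. Of the 13, 10 lay below globular seeds in all libraries and 3 (*PMEI6*, *DP1* and *PRX36*) overlapped. Of 6 embryo markers *WOX2* and *WOX9* were present, and their list summed to 32.3 to 35.2 TPM in *vel3-1*, against 46.8 to 60.5 TPM in Col-0. For *WOX2* and *WOX9* every *vel3-1* library lay below every Col-0 library, with an unadjusted p under 0.05 from limma. Of the 6 markers of mature and imbibed endosperm 1 (*MAN7*) was called higher in *vel3-1* at 24HAI, with 92.5 TPM on average, against 34.3 TPM in Col-0. The genotype groups were thus not alike in all tissue markers at 24HAI. The part of other tissues in the values below was not tested.

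*TT6* was the highest member at 24HAI, with 178, 177 and 155 TPM in the libraries labelled *vel3-1*, against 179, 189 and 169 TPM in Col-0. It made up 59.8% ± 1.54 of the member sum in *vel3-1* and 59.5% ± 0.226 in Col-0 (SD, n = 3 each). *TT7* was next, with 59.2, 67.6 and 58.4 TPM in *vel3-1*, against 73.1, 77.2 and 68.3 TPM in Col-0. All 3 *vel3-1* libraries lay under all 3 Col-0 libraries for *TT7*. *TT4* had 21.0, 23.4 and 17.3 TPM in *vel3-1*, against 18.8, 20.5 and 19.0 TPM in Col-0, and *TT5* had 4.27, 3.49 and 3.62 TPM in *vel3-1*, against 4.72, 3.80 and 4.15 TPM in Col-0. Both overlapped.

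Of the late genes at 24HAI, *BAN* had 11.2, 11.9 and 9.66 TPM in *vel3-1*, against 10.9, 11.0 and 7.45 TPM in Col-0. *TT3* had 8.52, 10.1 and 8.32 TPM in *vel3-1*, against 7.47, 8.08 and 7.60 TPM in Col-0, with every *vel3-1* library above every Col-0 library. *LDOX* had 6.18, 9.34 and 5.55 TPM in *vel3-1*, against 6.48, 7.17 and 6.55 TPM in Col-0, and its *vel3-1* values lay on both sides of the Col-0 values. The transporter and the regulators were close to 0. *TT12* had 0.190, 0.0310 and 0.161 TPM in *vel3-1*, against 0, 0.221 and 0.159 TPM in Col-0. *TT2* had 0.148, 0.193 and 0 TPM in *vel3-1*, against 0.149, 0.394 and 0.149 TPM in Col-0. *TT8* had 1.30, 0.829 and 0.774 TPM in *vel3-1*, against 0.768, 0.562 and 0.397 TPM in Col-0, and its groups were apart by the gap between 0.774 and 0.768 TPM only.

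The test of the genotypes at 24HAI covered the 7 members with a mean of at least 1 TPM, all but *TT12*, *TT2* and *TT8*. Of the 7, 0 were called in either direction by limma, beside 2.40% of 15918 genes tested. At an unadjusted p under 0.05 stood 1 member, *TT7*, beside 21.8% of all genes. Its means were 61.7 ± 5.10 TPM in *vel3-1* and 72.9 ± 4.44 TPM in Col-0 (SD, n = 3 each). Its log2 difference by limma was -0.24 with a standard error of 0.09 and an interval from -0.45 to -0.03. Its p from limma was 0.0311 and its adjusted p 0.177. *TT3* had a log2 difference of 0.19 with an interval from -0.06 to 0.44 and an adjusted p of 0.367. All *vel3-1* libraries lay under all Col-0 libraries in 14.5% of all genes, as for *TT7*, and above in 12.5%, as for *TT3*. The intervals of all 7 members lay within 2-fold, between -0.45 at the lower end of *TT7* and 0.52 at the upper end of *BAN*, and the median difference was 0.026, beside -0.0024 over all genes. Without the filter on low values, *TT8* had a log2 difference of 0.32 and an adjusted p of 0.270. The exact two-sided permutation test gave p = 0.1 for *TT7*, *TT3* and *TT8* each, the smallest that 3 against 3 libraries can give.

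Whether the genotype difference itself changed between the stages was tested by the interaction term of a limma model over all 12 libraries. No member passed, with 0 positive and 0 negative, beside 1.62% of 24350 genes at an adjusted p under 0.05, and 1 of 10 had an unadjusted p under 0.05, beside 15.9% of all genes. That member was *TT8*, whose difference was 0.72 higher on the log2 scale at 24HAI than in globular seeds, with a standard error of 0.25, a 95% interval from 0.17 to 1.26. Its p from limma was 0.0139 and its adjusted p 0.207. Without *vel3-1* replicate 2 of globular seeds its term was 0.84 at an adjusted p of 0.0458, the only alternative under which a member passed. Over the alternatives the adjusted p of *TT8* ran up to 0.445. The other 9 terms lay between -0.12 for *TT2* and 0.46 for *TT3*.

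All 10 members lay lower at 24HAI than in globular seeds. Each of the 6 libraries at 24HAI was below each of the 6 globular libraries and the mean at least 2-fold lower, which holds for 42.1% of 26698 genes. The reverse holds for 10.5%. Stage, tissue, extraction of RNA and scaling differ together between these groups and cannot be told apart, so the following is a description with no test. The median over the members of the log2 difference, 24HAI minus globular, was -5.65 in *vel3-1* and -5.83 in Col-0, beside -1.19 and -0.40 over all genes in the same genotypes. Over the 7 members that averaged 1 TPM or more at 24HAI it was -5.72 in *vel3-1* and -5.97 in Col-0. The 10 members together had 258 to 304 TPM in *vel3-1* and 283 to 318 TPM in Col-0 at 24HAI, against 3954 to 7668 TPM in *vel3-1* and 6287 to 6995 TPM in Col-0 in globular seeds.

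The members did not fall alike with stage. *TT6* at 24HAI stood at 27.9% of its globular mean in *vel3-1* and at 30.7% in Col-0. *TT7* stood at 5.70% and 5.19% in the same order, *BAN* at 3.21% and 2.76%, and *LDOX* at 1.63% and 1.39%. These 4 genes thus kept more of their level than *TT4*, which stood at 0.972% in *vel3-1* and 0.902% in Col-0. *TT5* stood at 0.978% and 1.05%, and *TT3* at 0.995% and 0.762%. Among the late genes *BAN* kept a larger share than *TT3*, which acts before it. *TT12*, *TT2* and *TT8* had 40.1 to 129.6 TPM in globular seeds and at most 1.30 TPM at 24HAI, so their shares, of 0.212% to 1.10%, rest on levels near 0. With these shares the order of the members changed, with *TT6* the highest at 24HAI and *TT4* in globular seeds. In Col-0 at 24HAI the order was *TT6*, *TT7*, *TT4*, *BAN*, *TT3*, *LDOX*, *TT5*, *TT8*, *TT2* and *TT12*, where only *BAN* with *TT3* and *TT2* with *TT12* overlapped in range.

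**Figure D4:**
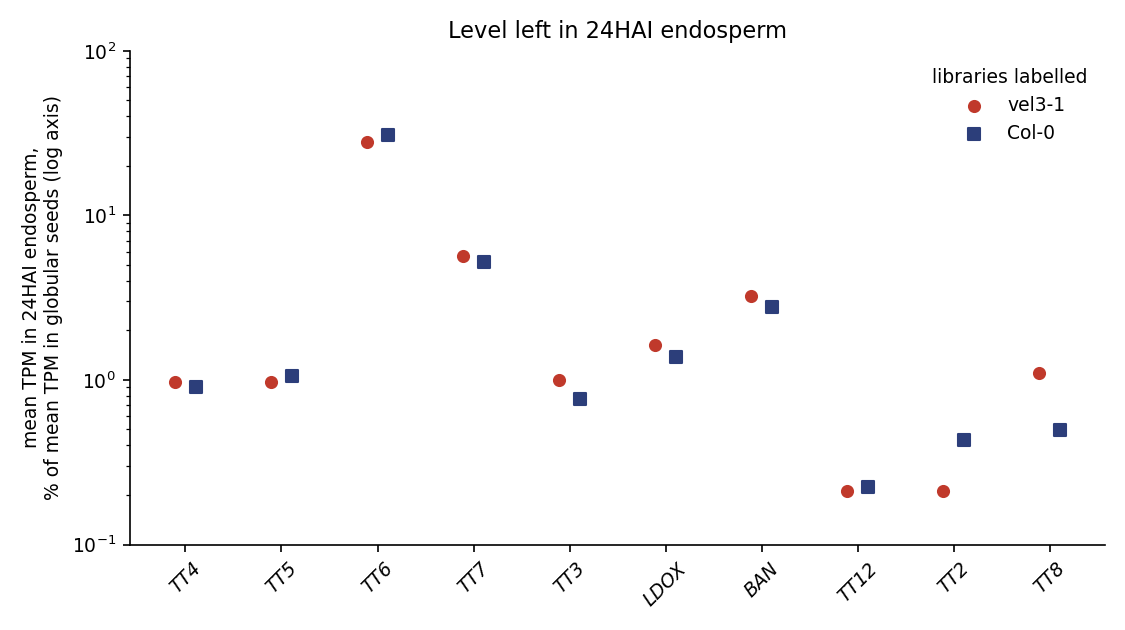
Mean TPM in 24HAI endosperm as a percent of the mean TPM in globular seeds, on a log axis, for the libraries labelled *vel3-1* (circles) and Col-0 (squares), n = 3 libraries in each mean. *TT6* stands at 27.9% and 30.7%, *TT7* at 5.70% and 5.19%, and *TT12* and *TT2* lie under 0.5%.

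Other genes of the route were read from lists. There were 37 further genes: 8 of the phenylpropanoid entry, 5 other proanthocyanidin genes, 10 of the flavonol and anthocyanin branches and 14 regulators. In globular seeds 0 of the 37 were called at 2-fold by limma, beside 2.08% of all genes, and at 24HAI 0 of the 20 that could be tested, beside 2.40%. For so few genes a count of 0 cannot be told from those shares. Some of the 37 passed the filter in globular seeds only with *vel3-1* replicate 3, since without it 9 of the 10 genes of the flavonol and anthocyanin branches and 11 of the 14 regulators were tested. At an unadjusted p under 0.05 were 6 of the 37 in globular seeds, all lower in *vel3-1*, beside 11.3% of all genes, and 9 of the 20 at 24HAI, 4 higher and 5 lower, beside 21.8% of all genes. Among the 4 higher were *MYB5* and *MYBL2*, which averaged 0.467 and 0.867 TPM in Col-0 at 24HAI. They reached the mean of 1 TPM needed for the test only through their level in *vel3-1*, so this count is partly selected by the difference itself. The median differences by list in globular seeds ran from -0.23 for the phenylpropanoid entry to 0.71 for the flavonol and anthocyanin branches, beside 0.50 over all genes. In that last list 5 of the 6 genes with a positive difference (*UGT78D3*, *UGT89C1*, *UGT75C1*, *UGT79B1* and *5MAT*) averaged 0.340 to 0.846 TPM in Col-0, and *vel3-1* replicate 3 had 3.49 to 5.65 times the mean of the other *vel3-1* libraries. Without that library the median of the list was 0.15, beside 0.14 over all genes. *4CL1*, a 4-coumarate:CoA ligase, was lower in globular *vel3-1* seeds at less than 2-fold, with a log2 difference of -0.68, a standard error of 0.19 and an adjusted p of 0.0114 from limma. *PAL1*, a phenylalanine ammonia-lyase, was lower in *vel3-1* at 24HAI, with 6.45, 6.41 and 7.97 TPM, against 9.62, 10.7 and 13.6 TPM in Col-0, a log2 difference of -0.62 with a standard error of 0.15 and an adjusted p of 0.0387.

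Genes that act beside the members in globular seeds were abundant too. *TT19*, the glutathione S-transferase that helps flavonoids reach the vacuole, had 170.1, 163 and 89.8 TPM in *vel3-1*, against 160.1, 169.7 and 199 TPM in Col-0. *CHIL*, which aids chalcone synthase, averaged 469.5 TPM in *vel3-1* and 544 TPM in Col-0, and *FLS1*, flavonol synthase, 139 TPM and 154 TPM in the same order. *PAL1*, *PAL2*, *C4H*, *4CL3* and *UGT78D1* each averaged between 119.7 and 184 TPM per group. *AHA10*, the proton pump of the vacuole, had 44.5, 47.6 and 33.4 TPM in *vel3-1*, against 41.8, 48.8 and 48.9 TPM in Col-0. At 24HAI *C4H*, cinnamate 4-hydroxylase, was the gene of these that stayed high, with 96.6, 92.9 and 102 TPM in *vel3-1*, against 63.3, 81.3 and 75.2 TPM in Col-0, and its log2 difference of 0.41 had an adjusted p of 0.0537. *TT19* was at 2.84 to 4.96 TPM in *vel3-1* and 3.03 to 4.32 TPM in Col-0 there. *TT10*, the laccase that oxidizes proanthocyanidins, was low in globular seeds, with 6.25 to 14.1 TPM in *vel3-1* and 6.91 to 9.60 TPM in Col-0. At 24HAI it had 2.66, 2.04 and 2.51 TPM in *vel3-1*, against 1.77, 0.929 and 1.08 TPM in Col-0, with the groups apart and an adjusted p of 0.0857.

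Among the regulators, *TTG1*, the WD40 partner of TT2 and TT8, had 36.9 to 51.5 TPM in globular *vel3-1* seeds and 37.8 to 44.0 TPM in Col-0, and was still at 9.15 to 10.6 TPM in *vel3-1* and 8.59 to 10.0 TPM in Col-0 at 24HAI, where TT2 transcript was near 0. *TT16*, a MADS-box gene needed for *BAN* in the inner seed coat, had 34.8, 39.2 and 34.7 TPM in globular *vel3-1* seeds, against 49.1, 47.9 and 49.7 TPM in Col-0, with the groups apart and an adjusted p of 0.302. *MYB5*, a MYB factor of the seed coat that overlaps in function with TT2, had 35.8, 44.1 and 29.0 TPM in globular *vel3-1* seeds, against 48.6, 49.8 and 48.7 TPM in Col-0. At 24HAI it stood at 1.86, 1.62 and 1.33 TPM in *vel3-1*, against 0.427, 0.506 and 0.468 TPM in Col-0. *MYBL2*, a repressor of the late genes, had 71.9, 68.3 and 47.5 TPM in globular *vel3-1* seeds, against 81.9, 109 and 110.1 TPM in Col-0. At 24HAI it stood at 1.87, 2.15 and 1.90 TPM in *vel3-1*, against 0.491, 1.17 and 0.938 TPM in Col-0. For both genes every *vel3-1* library was below every Col-0 library in globular seeds and above at 24HAI. The interaction term was 1.27 for *MYB5* (standard error 0.24, adjusted p = 0.0173 from limma) and 1.37 for *MYBL2* (standard error 0.28, adjusted p = 0.0260). Of the 35 genes of these lists that could be tested for the interaction, these 2 had a genotype difference called as different between the stages, beside 1.62% of 24350 genes. The call of *MYB5* was lost in 5 of 12 fits that left out a library, at an adjusted p of 0.0550 to 0.0694 (each Col-0 globular library, *vel3-1* replicate 1 and Col-0 replicate 3 at 24HAI). That of *MYBL2* was lost in 7 of 12, at 0.0601 to 0.0954 (Col-0 replicates 2 and 3 of globular seeds, all 3 *vel3-1* libraries and Col-0 replicates 1 and 3 at 24HAI), and without the trend at 0.0615. *TT8* lay in the same directions with a smaller term, and *TT2* did not, with -0.12.

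**Figure D5:**
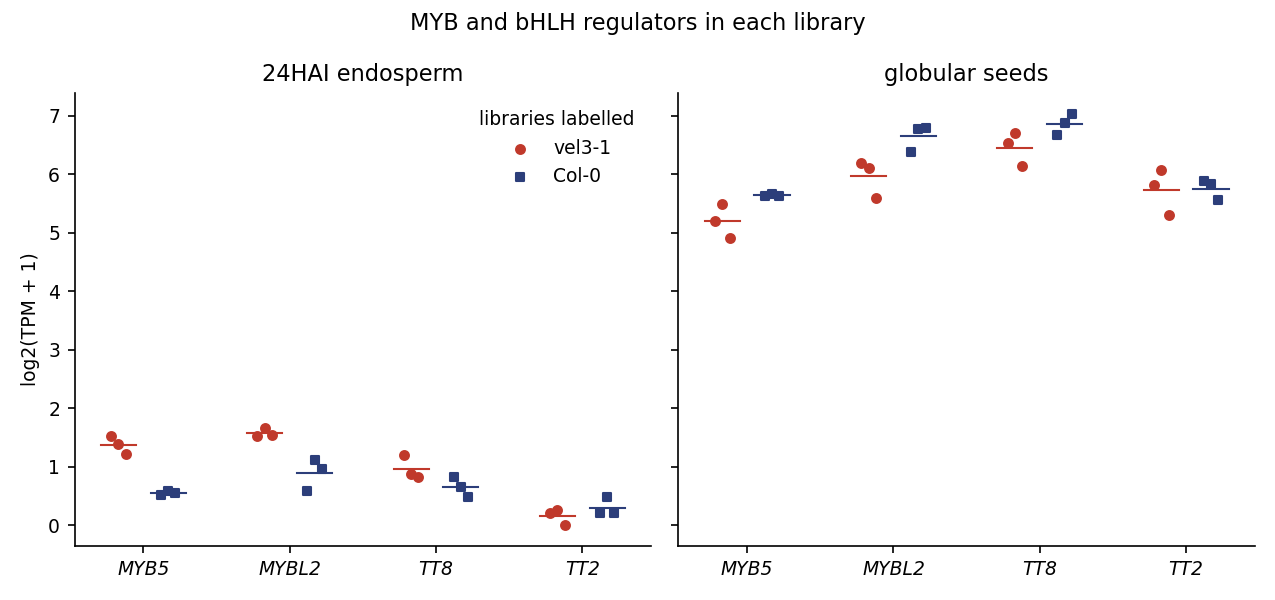
log2(TPM + 1) of *MYB5*, *MYBL2*, *TT8* and *TT2* in each library of 24HAI endosperm (left) and globular seeds (right), with libraries labelled *vel3-1* as circles, Col-0 as squares and the mean of 3 as a line. The *vel3-1* libraries of *MYB5* and *MYBL2* lie above Col-0 at 24HAI and below it in globular seeds, at 1.33 to 2.15 TPM for both genes in *vel3-1* at 24HAI.

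The genes whose pattern was most like that of the members were sought among 11197 genes with at least 10 TPM on average in globular seeds, by Pearson correlation of log2(TPM + 1) with the mean over the members. Over the 12 libraries, which fall into 2 clusters by stage, the closest were AT1G05490 (named chr31 in the files), AT4G37980 (*ELI3-1*), AT3G21500 (*DXPS1*), AT5G65710 (*HSL2*) and AT5G51950. They averaged 46.3 to 432 TPM in globular seeds and 0.0154 to 0.791 TPM at 24HAI. The likeness is thus in the step between the stages and not in the level at 24HAI. There *TT6*, for one, had 155 to 178 TPM in *vel3-1* and 169 to 189 TPM in Col-0. Within the 6 globular libraries the closest were AT5G43940 (*HOT5*), AT4G34430 (*ATSWI3D*), AT3G15730 (*PLDALPHA1*), AT2G21520 and AT3G19450 (*CAD4*), with coefficients of 0.997 to 0.998. These share with the members the low value in *vel3-1* replicate 3, and they averaged 13.9 to 113 TPM at 24HAI.

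In mature endosperm the 640 genes listed held *TT12*, at 0.0339, 0.0316 and 0 TPM in the libraries labelled *vel3-1*, against 0.0344, 0 and 0 TPM in Col-0. The other 9 members were not analysed at that stage.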

How the data were processed

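Members were the 10 gene identifiers given for the pathway, and they and all lists were chosen with earlier results of these data known. The authors trimmed reads with cutadapt 1.9.1 and aligned them with STAR 2.5 to TAIR10. They counted sense reads by gene (featureCounts) and deposited TPM per gene and library. How TPM were made from the counts is not given in the sources used here, and sums differ between libraries. Depth per library was not used. Columns were matched to samples by name, except that those of globular seeds name the genotype but not the sample, so a replicate number there is only that of its column. The 20 ChIP-seq samples were not used here.

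Genotypes were compared on log2(TPM + 1) by limma 3.58.1 (R 4.3.3), fitting a mean-variance trend to all genes that averaged 1 TPM or more, with Benjamini-Hochberg adjustment over them. A call needed a 2-fold difference or more and an adjusted p under 0.05. The interaction of genotype and stage used 4 groups and was called at that adjusted p with no fold minimum. An exact permutation test was run for single genes. The procedure was also run on simulated data with planted changes. Those data held no library with a raised floor, so that run cannot vouch for the globular fit. Tables were read with Python 3.11.15, numpy 2.4.6 and pandas 2.3.3, and plots made with matplotlib 3.10.9. Each stage is a table of its own, so each genotype difference was taken within a stage. The interaction compared these differences over all 12 libraries, and both stages shared a single estimate of the spread of each gene.

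Windows of 250 bases were read from the RefSeq genome TAIR10.1 with its own annotation, which matched 79 of 79 listed genes. Alternatives were a pseudocount of 0.1, no filter, a filter at 5 TPM, scaling by median ratios, quantile normalization, organelle genes left out, no trend, no fold minimum, subtraction of the silent-gene median from globular libraries, a replicate block at 24HAI and each library left out. Named genes were the 10 members with every library, genes of other pathway lists that were called or above 100 TPM in a group, *TT19*, *AHA10*, *TT10*, *TTG1*, *TT16* and *MYB5*, *VEL3*, and the 5 most alike genes over 12 and over 6 libraries. *4CL1*, *PAL1* at 24HAI, *C4H* at 24HAI and *MYBL2* at 24HAI were singled out after their values were seen.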

Additional observations from a re-analysis of the deposited data

Results flagged for a closer look

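The effect of *vel3-1* on *MYB5* differed between the stages by the test of the interaction. Its interaction term, 24HAI minus globular, was 1.27 on the log2 scale (adjusted p = 0.0173 from limma), and every one of the 3 libraries labelled *vel3-1* was above Col-0 at 24HAI and below Col-0 in globular seeds. At 24HAI its level in *vel3-1* was 1.33 to 1.86 TPM and in Col-0 0.427 to 0.506 TPM, so the difference there is between low values. The same holds for *MYBL2*, with a term of 1.37 (adjusted p = 0.0260 from limma). *MYB5* overlaps AT3G13530 on the other strand, and sense reads were kept by the authors. In globular seeds *vel3-1* replicate 3 was the lowest library for both genes. Over the 12 fits that left out a library the adjusted p ran from 0.00274 (without that library) to 0.0694 for *MYB5*, with the call lost in 5, and from 0.00994 (without that library) to 0.0954 for *MYBL2*, with the call lost in 7.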

How the results depend on the processing

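No member was called in globular seeds or at 24HAI under any alternative run, and all 10 stayed apart between the stages. For the interaction 1 member (*TT8*) passed without *vel3-1* replicate 2 of globular seeds, so that the count ran from 0 to 1 over the libraries left out. Over all alternatives, those that left out a library among them, 47 of 454 member values changed sign. Apart from leaving out libraries it was 14 of 232, none of them past the threshold. In globular seeds median-ratio scaling gave *TT12* -0.39, subtraction of the silent-gene median *TT12* -0.10, and quantile normalization *TT4* 0.026, *TT5* 0.0041, *TT6* 0.071 and *TT2* 0.058. For the interaction the pseudocount of 0.1 gave *TT12* 0.048, median-ratio scaling *TT5* 0.39, *TT6* 0.35, *TT12* 0.39 and *TT2* 0.30, quantile normalization *TT7* -0.0045, and subtraction *TT12* 0.10 and *TT2* 0.020. Sign changes with libraries left out lay in these ranges. In globular seeds *TT4* ran from -0.20 to 0.16, *TT5* from -0.27 to 0.16, *TT6* from -0.26 to 0.32, *TT3* from -0.56 to 0.12, *LDOX* from -0.41 to 0.073, *BAN* from -0.38 to 0.22, *TT12* from -0.17 to 0.29 and *TT2* from -0.19 to 0.19. At 24HAI *TT4* ran from -0.028 to 0.18, *LDOX* from -0.17 to 0.16 and *BAN* from -0.0029 to 0.25. For the interaction *TT4* ran from -0.094 to 0.27, *TT5* from -0.29 to 0.15, *TT6* from -0.40 to 0.19, *TT7* from -0.10 to 0.39, *LDOX* from -0.047 to 0.44, *BAN* from -0.053 to 0.55, *TT12* from -0.29 to 0.17 and *TT2* from -0.34 to 0.048.

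The number of all genes called in globular seeds was 552 and became 257 under quantile normalization, 0 without the trend (2034 at an unadjusted p under 0.05), 856 with no fold minimum, 228 with the subtraction and 897 without *vel3-1* replicate 2. At 24HAI it was 382 and became 204 with a mean of at least 5 TPM, 1209 with no fold minimum, 245 without *vel3-1* replicate 1 and 591 without Col-0 replicate 2. For the interaction it was 394 and became 260 with the pseudocount of 0.1 and 1095 under quantile normalization, and ran from 134 to 3764 over the libraries left out. Higher against lower calls were 271 to 111 at 24HAI and 276 to 63 without organelle genes, 454 to 98 in globular seeds and 154 to 74 with the subtraction, and for the interaction 134 to 260, against 125 to 135 with the pseudocount of 0.1, 255 to 215 under median-ratio scaling, 593 to 502 under quantile normalization and 244 to 186 with the subtraction. The cause of these changes was not tested.

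Replicate numbers did not pair the samples at 24HAI, since the deviations of same-numbered libraries had correlations of -0.39, 0.02 and 0.22. With the replicate block 0 members and 362 genes were called at 24HAI. No block or check of the pairing is given for globular seeds or for the interaction, since the columns of globular seeds end in a number but could not be tied to single samples. Depth was not used, so the floor of a low TPM is not known.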
